A study of Mus musculus with 7 samples.

Results

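The RNAs described here encode the 8 subunits of the cytosolic chaperonin TRiC, also called CCT (Tcp1, Cct2, Cct3, Cct4, Cct5, Cct6a, Cct7 and Cct8), and 2 subunits of prefoldin (Pfdn1 and Pfdn2). These 10 genes were taken by symbol from the 55487 genes of the count table, and all 10 passed the filter on low counts that left 18449 genes for testing. They were measured in cervical spinal cord of mice at 8 weeks of age, with 4 libraries from Neat1-KO; hSOD1G93A mice (replicates 1 to 4) and 3 from Neat1-WT; hSOD1G93A mice (replicates 2 to 4). Every mouse, controls included, carried the hSOD1G93A transgene, a mutant human SOD1 found in familial ALS, so the comparison is of Neat1 loss within an ALS model. The long non-coding RNA Neat1 builds nuclear bodies called paraspeckles, and Neat1-KO mice lack it on both alleles. No library of a mouse without the transgene was analysed here. The question was whether the genotypes differed in the RNAs of this folding machine, and how its subunits varied together from mouse to mouse.

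TRiC consists of stacked rings, each built from all 8 subunits, and folds newly made cytosolic proteins inside its cavity at the cost of ATP. Actin and tubulin are its best known clients, with WD40 repeat proteins among the others. Prefoldin is a jellyfish-shaped complex without ATPase activity that takes up unfolded actin and tubulin chains and hands them to TRiC. In neurons both serve the supply of cytoskeletal proteins for axons, and TRiC has been studied for its action on aggregation-prone proteins.

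The libraries held between 19661878 and 26031517 counts, and the members between 903 and 4922 counts per library. Counts were scaled by the TMM method to CPM, the counts of a gene per 1000000 counts of its library. Neat1 was at 4.04 to 5.52 CPM in the 4 Neat1-KO libraries and at 80.5 to 118 CPM in the 3 Neat1-WT libraries, as the labels state. Neuronal, astrocyte and oligodendrocyte markers were expressed in every library, the 8 neuronal markers summing to between 10148 and 12287 CPM. Because whole tissue was used, fewer cells of a type and less RNA per cell cannot be told apart. Each library came from a separate mouse. Y-linked genes were expressed in all 7 libraries, at a lower count in Neat1-KO replicate 4 (Ddx3y, 1047 counts) than in the others (1611 to 1880 counts), with Xist at 4 counts or fewer throughout. Uty (169 counts), Kdm5d (254 counts) and Eif2s3y (321 counts) were also lowest in that library. These are counts before scaling, and its total of 26031517 counts was the highest.

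The 10 members lie on 10 different chromosomes. Their promoters were taken from the RefSeq promoter table for GRCm38.p6, which covers 250 bases before and 50 after a transcription start and holds 8 of the 10 members in 11 promoters. Motifs were searched on both strands. GGGCGG, the GC box bound by Sp1-type factors, was found in 9 of the 11 member promoters, at least 1 for each of the 8 genes, and in 58.3% of the promoters of tested genes. CCAAT, the box bound by NF-Y, was found in 4 of the 11 (for Tcp1, Cct3, Cct6a and Cct7), a share near the 37.2% found among the promoters of tested genes. The paired units of the heat shock element were read in both arrangements. GAANNTTC was found in 1 of the 11 (for Cct2), and in 5.81% of the promoters of tested genes. TTCNNGAA was found in 2 (for Cct5 and Cct6a), and in 6.73% of those promoters. CGGAAG, a core of ETS family sites, was found in 4 (for Tcp1, Cct2 and Cct8), and in 26.7% of them. These are matches of letters, and binding was not measured.

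The upstream stretches of Cct7 and Cct3 are shown because they hold CCAAT on the reverse strand more than once, and that of Cct8 because it holds a GC box beside CGGAAG. They lie outside the exons annotated in GENCODE M21. Capitals mark the motif letters, on either strand, and each line runs 5′ to 3′ along the gene. They stand at chr6:85451355-85451504 on the plus strand (Cct7), chr3:88297000-88297115 on the plus strand (Cct3) and chr16:87495874-87495998 on the minus strand (Cct8).
Cct7: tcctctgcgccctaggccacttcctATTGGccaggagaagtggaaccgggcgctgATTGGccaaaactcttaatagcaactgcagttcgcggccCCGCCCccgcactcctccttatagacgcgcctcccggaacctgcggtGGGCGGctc
Cct3: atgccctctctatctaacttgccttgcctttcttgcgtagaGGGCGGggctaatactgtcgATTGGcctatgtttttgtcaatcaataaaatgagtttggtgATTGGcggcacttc
Cct8: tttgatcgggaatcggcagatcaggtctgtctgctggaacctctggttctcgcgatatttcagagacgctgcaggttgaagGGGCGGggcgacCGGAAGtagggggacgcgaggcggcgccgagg

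The 3 sites with paired heat shock units are shown as stretches of 30 bases, with the units in capitals, since the heat shock factor HSF1 binds such units and TRiC genes are counted among its targets. They stand at chr10:117063399-117063428 on the minus strand (Cct2, starting 53 bases before the second of its starts), chr15:31601862-31601891 on the minus strand (Cct5, starting 45 bases before the start) and chr5:129787369-129787398 on the plus strand (Cct6a, beginning at base 14 of the transcript). The Cct2 site lies outside the exons annotated in GENCODE M21, whereas all 30 bases of the Cct5 and Cct6a sites lie within annotated exons. For Cct5 these are exons of another gene, since Cct5 itself, on the minus strand, begins at 31601804 in GENCODE M21.
Cct2: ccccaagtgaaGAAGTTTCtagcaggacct
Cct5: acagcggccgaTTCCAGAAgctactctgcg
Cct6a: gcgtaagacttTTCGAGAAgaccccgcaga

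No TRiC or prefoldin member passed the test between the genotypes. None of the 10 was called by edgeR's quasi-likelihood test, which asked for a log2 fold change beyond 0.58 in either direction with an adjusted p under 0.1 and called 0.0325% of all tested genes. The number called was also 0 with DESeq2 and with limma-voom. None reached an unadjusted p of 0.05, which 4.64% of tested genes did, and for none were the genotypes without overlap between libraries, which held for 5.47% of tested genes. The log2 fold change (Neat1-KO minus Neat1-WT) was below 0 for 8 of the 10 members, against 48.2% of tested genes. That count fell to 4 when Neat1-WT replicate 2 was left out, and was 5 when the summed level of meningeal markers, described below, was added to the model after the data had been seen. The median over the TRiC subunits was -0.03, beside 0.01 over all tested genes, and changed sign in the same 2 cases (0.0074 and 0.00244). It was farther from 0 without Neat1-WT replicate 4 (-0.094), without Neat1-KO replicate 1 (-0.0737) and with the replicate number as a block (-0.0714). The 95% intervals of the TRiC subunits lay between -0.28 and 0.19 on the log2 scale, all within the fold minimum of 0.58.

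**Figure D1:**
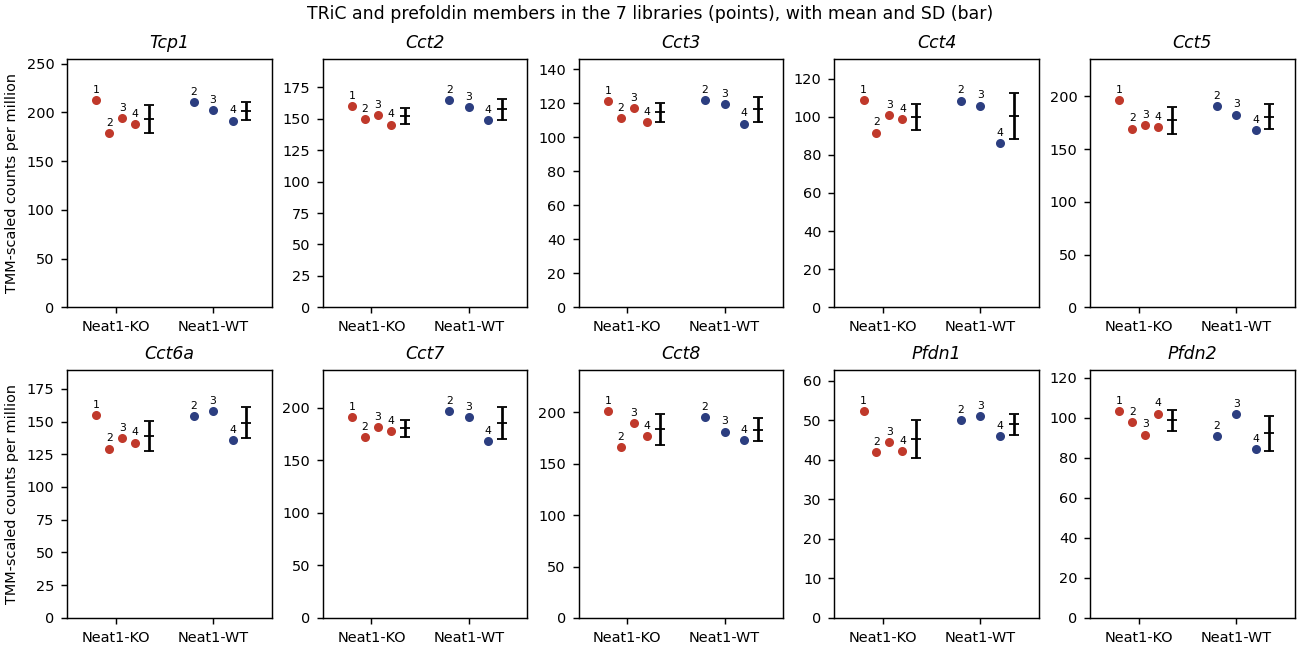
TMM-scaled CPM of the 10 members on the y axis for the 4 Neat1-KO (red) and 3 Neat1-WT (blue) libraries, each point 1 mouse labelled with its replicate number, with the mean and SD beside the points. The genotypes overlap for all 10 members, and Neat1-KO replicate 1 lies with Neat1-WT replicate 2 near the top of most TRiC panels.

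For Tcp1, the founding subunit of the family, Neat1-KO replicates 1 to 4 gave 212, 179, 194 and 188 CPM, and the controls, Neat1-WT replicates 2 to 4, gave 210, 202 and 192 CPM. Values below follow this order of libraries. The highest and the lowest library were both Neat1-KO. Its log2 fold change was -0.06 (95% interval -0.22 to 0.10). Cct6a, among the subunits with weak ATP binding, was at 155, 129, 138 and 134 CPM in Neat1-KO and at 154, 158 and 136 CPM in Neat1-WT libraries. Neat1-KO replicate 1 lay among the controls, and Neat1-WT replicate 4 lay among the Neat1-KO libraries. Its log2 fold change of -0.10 (-0.28 to 0.08, adjusted p = 0.992 in edgeR) was the lowest of the TRiC subunits. GENCODE M21 annotates Cct6a as a processed transcript with no coding transcript, whereas RefSeq lists it as protein coding.

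Cct2 was at 160, 150.0, 153 and 145 CPM in Neat1-KO and at 165, 159 and 149 CPM in Neat1-WT libraries, with a log2 fold change of -0.05 (-0.20 to 0.10). Cct7 was at 191, 172, 181 and 178 CPM in Neat1-KO and at 197, 191 and 168 CPM in Neat1-WT libraries, with a log2 fold change of -0.04 (-0.20 to 0.12). For both, Neat1-WT replicate 2 was the highest library. For Cct7, Neat1-WT replicate 4 was the lowest, so that the 3 controls spanned the Neat1-KO libraries entirely.

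Cct5, whose human form is mutated in an inherited sensory neuropathy, was at 196, 170, 173 and 171 CPM in Neat1-KO and at 191, 183 and 168 CPM in Neat1-WT libraries. The first Neat1-KO library stood apart from the other 3, which lay close together. Its log2 fold change was -0.03 (-0.19 to 0.14). Cct3 was at 121, 111, 117 and 109 CPM in Neat1-KO and at 122, 120 and 108 CPM in Neat1-WT libraries, and its log2 fold change was -0.02 (-0.18 to 0.14).

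Cct4 was at 109, 91.7, 101 and 98.6 CPM in Neat1-KO and at 108, 106 and 86.3 CPM in Neat1-WT libraries. Its lowest library was a control, and its log2 fold change was -0.0057 (-0.20 to 0.19). Cct8 was at 201, 166, 189 and 177 CPM in Neat1-KO and at 195, 181 and 173 CPM in Neat1-WT libraries, and was the single TRiC subunit with a log2 fold change above 0, at 0.0021 (-0.17 to 0.18). The signs of Cct3, Cct4, Cct5, Cct7 and Cct8 depended on the scaling, the tool or the libraries used.

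The prefoldin members lay on either side of 0. Pfdn1, a beta-type subunit, was at 52.3, 42.0, 44.4 and 42.2 CPM in Neat1-KO and at 50.1, 51.0 and 46.0 CPM in Neat1-WT libraries. Replicates 2, 3 and 4 of Neat1-KO were below every control, and replicate 1 was above them. Its log2 fold change was -0.12 (-0.32 to 0.08, adjusted p = 0.992 in edgeR). Pfdn2, also of the beta type, was at 103, 97.8, 91.6 and 102 CPM in Neat1-KO and at 90.8, 102 and 84.3 CPM in Neat1-WT libraries, with a log2 fold change of 0.10 (-0.08 to 0.28, adjusted p = 0.992). The ratio of Pfdn2 to Pfdn1 CPM within a library was 2.20 ± 0.211 (SD, n = 4) in Neat1-KO and 1.88 ± 0.10 (SD, n = 3) in Neat1-WT mice. The difference did not pass the two-sided exact permutation test (p = 0.114, where 4 against 3 mice cannot give less than 0.0286), and this ratio was chosen after the values were seen. For the single members, the exact permutation p was 0.229 or higher.

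**Figure D2:**
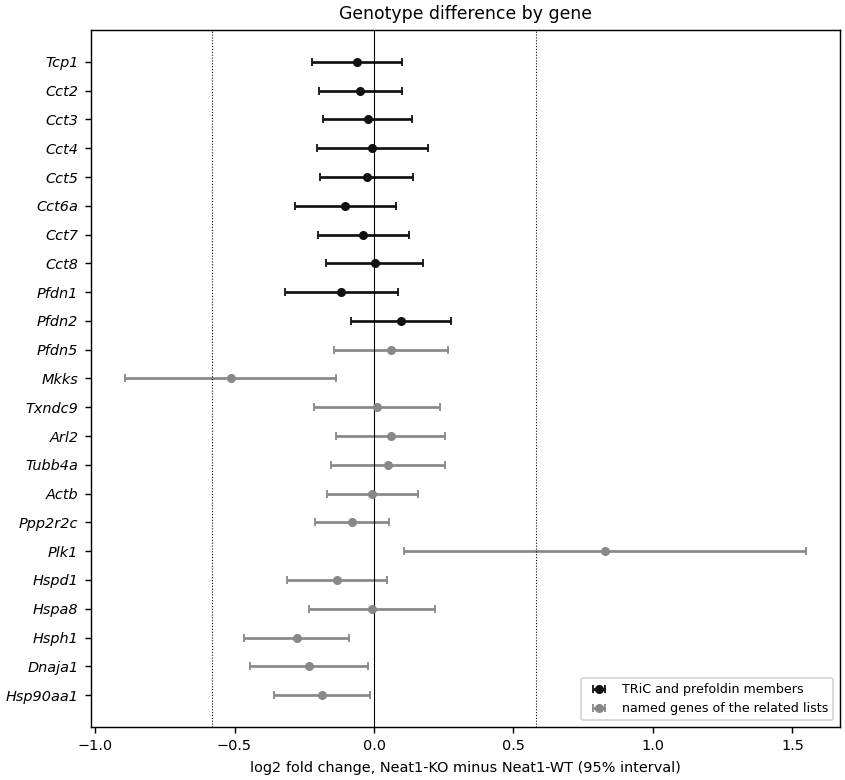
Log2 fold change (Neat1-KO minus Neat1-WT) on the x axis with its 95% interval for the 10 members (black) and the named genes of related lists (grey), 1 gene per row, with dotted lines at the fold minimum of 0.58 in either direction. The interval of every member includes 0 and stays inside the dotted lines. Those of Mkks, Plk1, Hsph1, Dnaja1 and Hsp90aa1 do not include 0. Plk1, Hsph1, Dnaja1 and Hsp90aa1 were chosen for an unadjusted p under 0.05, so their intervals leave out 0 by that choice. The adjusted p of these genes and of Mkks was 0.912 or higher in the main edgeR fit.

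The subunits stood at different levels, and their order depended on the length used. Per kb of all annotated exons, Cct5 was the highest TRiC subunit at 64.6 ± 4.11 CPM per kb (SD, n = 7), followed by Cct2 at 60.4 ± 2.72 and Cct8 at 59.4 ± 4.09. Next came Cct6a at 39.6 ± 3.27 and Tcp1 at 39.1 ± 2.42. Cct7 was at 26.9 ± 1.61, Cct4 at 23.8 ± 2.03 and Cct3 at 18.1 ± 0.923 CPM per kb. The ranges over the 7 libraries of Cct5, Cct2 and Cct8 overlapped from neighbour to neighbour, as did those of Cct6a and Tcp1 and those of Cct7 and Cct4. Within a library, however, Cct5 was above Cct2 and Cct7 above Cct4 in 7 of 7 cases, whereas Cct2 was above Cct8, and Cct6a above Tcp1, in 4 of 7, so that these last pairs did not differ beyond their spread. The highest subunit was 3.57 times the lowest. Pfdn2 (49.6 ± 3.73) and Pfdn1 (42.3 ± 3.85 CPM per kb) fell between Cct8 and Cct6a.

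Per kb of coding sequence, the spread of the TRiC subunits was narrower, and Cct6a could not be placed because it has no coding length in this annotation. Tcp1 was at 118 ± 7.29, Cct7 at 112 ± 6.67, Cct8 at 112 ± 7.68 and Cct5 at 110 ± 7.0 CPM per kb (SD, n = 7), with ranges that overlapped. Cct2 was at 96.2 ± 4.33, Cct3 at 70.5 ± 3.60 and Cct4 at 61.8 ± 5.27 CPM per kb. Pfdn2 was then the highest member at 208 ± 15.6 CPM per kb, above the range of all others, and Pfdn1 was at 128 ± 11.7. The coding sequence of Pfdn2 is 462 bases long, and reads of all its exons were divided by it. Per kb of the longest coding transcript (1735 bases), Pfdn2 was at 55.3 CPM per kb, rank 7 of 9. None of the 9 members kept its rank between all exons and coding sequence. Cct5 and Cct2 moved most, from ranks 1 and 2 to ranks 6 and 7 of the 9. The exons of Cct7 sum to 6778 bases over all its annotated transcripts and those of Cct5 to 2766, while their coding sequences are 1632 and 1623 bases long.

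**Figure D3:**
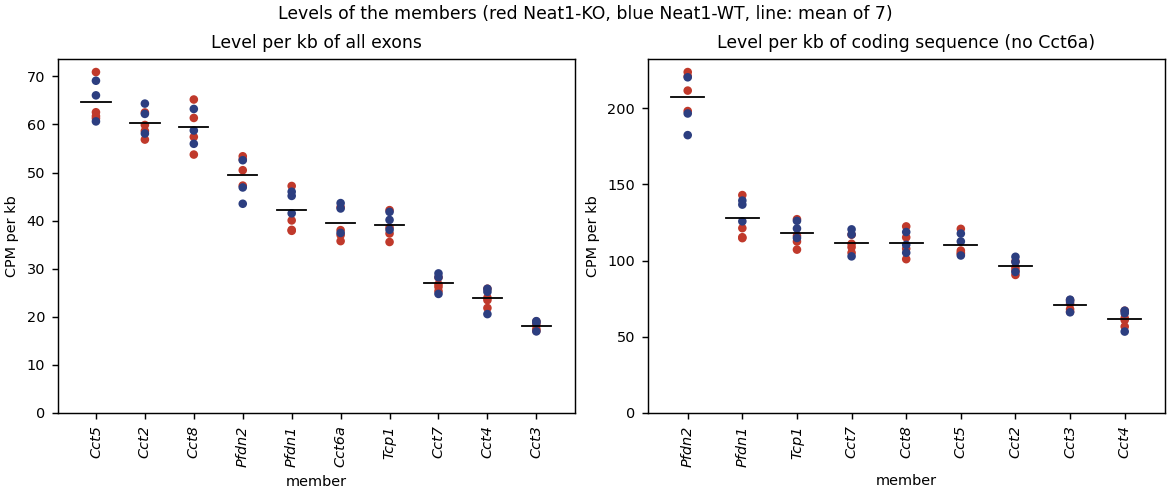
CPM per kb on the y axis for each member on the x axis, per kb of all exons (left) and per kb of coding sequence (right), with 1 point per library (red Neat1-KO, blue Neat1-WT) and a line at the mean of 7. The colours mix within every member, and the order of the members differs between the panels.

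No subunit's share of the TRiC RNA passed a test between the genotypes. Of the summed exon-scaled level of the 8 subunits, Cct5 made up 19.5% ± 0.406 (SD, n = 4) in Neat1-KO and 19.4% ± 0.106 (SD, n = 3) in Neat1-WT mice. Cct3 made up 5.48% ± 0.152 and 5.42% ± 0.0477. The largest difference in share was that of Cct6a, at 11.7% ± 0.218 for the knockouts and 12.2% ± 0.430 for the controls, with an exact permutation p of 0.114. The lowest p over the 8 shares was this one.

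The 8 TRiC subunits varied together from mouse to mouse. Their summed level was 1345, 1168, 1246 and 1199.8 CPM over the Neat1-KO mice and 1342, 1299.7 and 1178 CPM over the controls, so that the highest library had 1.15 times the lowest. The highest and the lowest library were both Neat1-KO. Over the 28 pairs of TRiC subunits, Pearson's r of log2 CPM ranged from 0.742 (Cct6a and Cct8) to 0.971 (Cct4 and Cct7), with a median of 0.880. Spearman's rho ranged from 0.714 to 1.0, with a median of 0.857. By exact permutation over all pairings of the 7 libraries, with Benjamini-Hochberg adjustment over the 45 pairs of the 10 members, 19 of the 28 pairs had an adjusted p under 0.05 by r and 13 by rho. The adjusted p by r ranged from 0.0339 to 0.0969. Without the 2 libraries farthest from the median of the first gene, r ranged from 0.506 to 0.998, and it was above 0 for every pair. After the mean of each genotype was subtracted, it ranged from 0.817 to 0.996, with a median of 0.892.

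Correlations of this size were found for part of the other genes too. Over all pairs of the 18449 tested genes the median r was 0.00, and 4.29% of pairs were above the lowest r of the TRiC pairs. Among the 2179 genes at or above the mean CPM of the least abundant subunit, that share was 8.61%. These shares are a description, since all pairs rest on the same 7 libraries. Of 12831 tested genes with a mean CPM of at least 5, those most like the mean profile of the TRiC subunits were Abracl (r = 0.993), Psmc6 (r = 0.993), Rabggtb (r = 0.992), Llph (r = 0.991) and A230004M16Rik (r = 0.982). Psmc6 encodes an ATPase of the proteasome, and Rabggtb a subunit of the enzyme that attaches lipids to Rab proteins. They were picked as the highest values, so their r is a description.

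**Figure D4:**
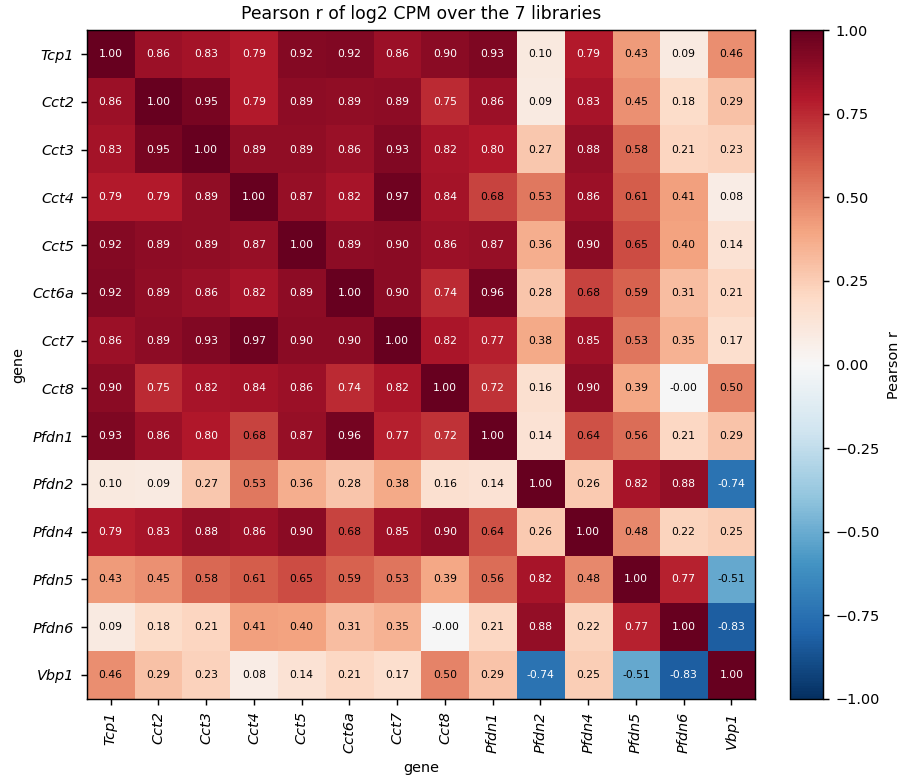
Pearson r of log2 CPM over the 7 libraries for each pair of the 10 members and the other prefoldin subunits Pfdn4, Pfdn5, Pfdn6 and Vbp1, with genes on both axes and the value in each cell (red positive, blue negative). The TRiC block is red throughout (0.742 to 0.971), the cells among Pfdn2, Pfdn5 and Pfdn6 are red (0.768 to 0.879), and theirs with Vbp1 are blue.

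Of the prefoldin members, Pfdn1 had r between 0.678 (with Cct4) and 0.958 (with Cct6a) to the TRiC subunits. By exact permutation, the adjusted p was under 0.05 for 4 of 8 pairs by r and for 2 by rho. Without the 2 farthest libraries, the r of Pfdn1 ranged from 0.38 to 0.96. Pfdn2 had r between 0.0907 and 0.527, with an adjusted p between 0.279 and 0.840, and without the 2 farthest libraries 4 of its 8 values were below 0. The correlation between Pfdn1 and Pfdn2 was 0.141 (rho 0.214, exact permutation p = 0.754 for r, adjusted p = 0.789) and turned to -0.655 without the 2 farthest libraries. Whether the r of Pfdn1 and of Pfdn2 to TRiC differed was not tested.

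The other 4 subunits of prefoldin, which complete the complex with Pfdn1 and Pfdn2, had r to the mean TRiC profile between 0.268 (Vbp1) and 0.883 (Pfdn4). Pfdn4 was the least abundant, at 19.8, 14.7, 16.6 and 14.5 CPM in Neat1-KO and 19.6, 15.3 and 13.0 CPM in Neat1-WT libraries. Pfdn5 was at 77.3 to 100.4 CPM and Pfdn6 at 33.5 to 42.6 CPM over the 7 libraries, with r to the TRiC profile of 0.570 and 0.271 and to Pfdn2 of 0.823 and 0.879. Vbp1, an alpha-type subunit, was at 49.3 to 66.7 CPM, and its r to Pfdn2 was -0.742 and to Pfdn6 -0.827. Over the 15 pairs of the 6 subunits, the adjusted p by r was 0.162 or higher by exact permutation, and by rho 1 pair, Pfdn5 with Pfdn6 (rho 0.964), reached an adjusted p of 0.0417. Per kb of all exons, Pfdn5 was the highest of the 6 at 62.3 ± 5.78 CPM per kb and Pfdn4 the lowest at 6.44 ± 1.04 (SD, n = 7).

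The order of the libraries by TRiC level ran against markers of the meninges, the connective tissue sheaths around the cord. The 6 markers, among them the collagen genes Col1a1 and Col1a2 and the proteoglycan genes Dcn and Lum, summed to 73.8, 193, 157 and 145 CPM over the Neat1-KO mice and to 66.4, 104 and 197 CPM over the controls. All 6 had a log2 fold change above 0 (median 0.29), where 48.2% of tested genes were below 0. Of them, 1 had an unadjusted p under 0.05 in edgeR, beside 4.64% of tested genes, and 0 were called. The libraries with the lowest sums (replicates 2 and 3 of Neat1-WT and replicate 1 of Neat1-KO) had the highest TRiC levels, and those with the highest sums (Neat1-KO replicate 2 and Neat1-WT replicate 4) the lowest. The r of the sum to the mean TRiC profile was -0.959 (rho -0.893), and -0.917 without the 2 libraries farthest from the median of the sum. With the single members, r to the sum ranged from -0.970 (Cct5) to -0.823 (Pfdn1), apart from Pfdn2 at -0.332. When the linear relation with the meningeal sum was removed from each subunit, a step added after the data had been seen, the median r over the TRiC pairs was 0.31. With r of -0.959 between the sum and the mean TRiC profile, this step takes out most of that profile. The part of meningeal tissue in the co-variation was not tested.

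The sums of the other marker lists moved with TRiC to various degrees. The microglial sum had r of -0.923 to the mean TRiC profile, the astrocyte sum -0.830 and the neuronal sum 0.840. Without the 2 farthest libraries these were -0.849, -0.878 and 0.531. The 2 were those farthest from the median of the sum or measure in question, so they could differ between relations. Within these lists the genes did not all move together. The median r between markers was 0.44, 0.297 and 0.178, and the lowest -0.958, -0.818 and -0.777. Some other relations weakened or turned without the 2 farthest libraries. That of the mitochondrial share of counts went from 0.676 to 0.273 and that of the total count from -0.429 to 0.370. Of the sensory neuron markers, Prdm12, Scn10a and Trpv1 had at most 9, 5 and 5 counts in any library. The 1 of 4 that was tested, at 0.232 to 1.12 CPM, had r of -0.563 to the TRiC profile. It was -0.620 without the 2 farthest libraries. Blood markers summed to 5.80 to 13.6 CPM, and those of skeletal muscle that were tested (2 of 5) to 1.41 to 6.47 CPM. The 3 untested muscle genes stood apart in Neat1-WT replicate 4, one of the libraries with the lowest TRiC level, where Myh4 had 91 counts (0 to 3 elsewhere), Ckm 65 (3 to 12) and Tnnt3 51 (0 to 13). Without that library the median r over the TRiC pairs was 0.891. Endothelial markers went from r of -0.583 to -0.022 without the 2 farthest libraries, dividing cell markers from -0.575 to -0.063, oligodendrocyte markers from -0.309 to 0.016 and muscle from -0.262 to 0.766, while blood was at 0.373 and 0.374. Between the genotypes, the motor neuron markers summed to 329 to 402 CPM in Neat1-KO and 417 to 491 CPM in Neat1-WT libraries, without overlap of the sums. All 7 single markers were below 0 (median -0.20), beside 48.2% of tested genes, and 0 were called. An unadjusted p under 0.05 in edgeR was reached by 3 of them, beside 4.64% of tested genes. Of the 7, 0 were without overlap between the genotypes, beside 5.47% of tested genes. Their sum had r of 0.561 to the TRiC profile, which turned to -0.127 without the 2 farthest libraries. The part of these tissues in the TRiC values was not tested.

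**Figure D5:**
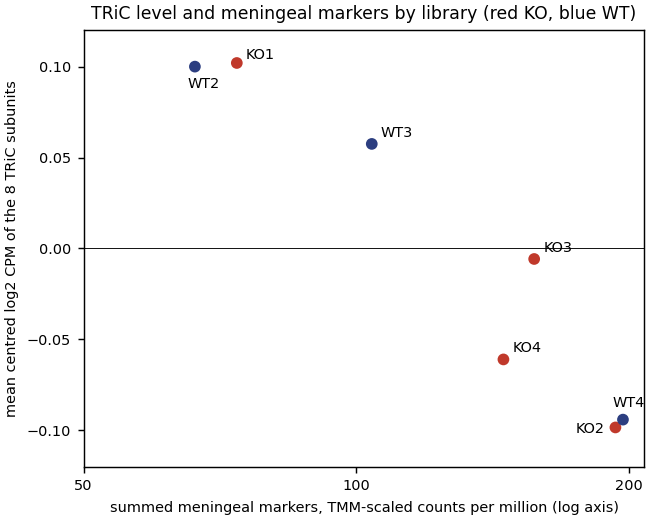
Mean centred log2 CPM of the 8 TRiC subunits on the y axis against the summed CPM of the 6 meningeal markers on a log x axis, 1 point per library (red Neat1-KO, blue Neat1-WT) with its replicate number. The 7 points descend from sums of 66.4 and 73.8 CPM and a TRiC level of 0.10 to sums of 193 and 197 CPM and levels of -0.0984 and -0.0941, with both genotypes at either end.

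Partners and clients of TRiC were described by lists, none of which had a called gene. Of the TRiC paralogs and chaperonin-like genes, 3 of 4 were tested, 1 below and 2 above 0. Mkks, a chaperonin-like protein of the basal body, was at 7.45, 6.89, 10.2 and 6.29 CPM in Neat1-KO and at 12.6, 10.97 and 9.33 CPM in Neat1-WT libraries, with a log2 fold change of -0.51 (-0.89 to -0.14) that did not pass adjustment (unadjusted p = 0.0118, adjusted p = 0.983 in edgeR). Neat1-KO replicate 3 overlapped the controls. The paralog Cct6b, a testis form, had between 1 and 12 counts and was not tested.

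Among TRiC cofactors of the phosducin-like family, 3 of 4 genes were tested, with a median log2 fold change of 0.01, and the most abundant, Txndc9, averaged 44.2 ± 5.41 CPM over the 4 Neat1-KO mice and 43.8 ± 4.13 CPM over the 3 controls (± SD; log2 fold change 0.01). Tubulin folding cofactors, which assemble the tubulin dimer after its release from TRiC, were above 0 for 8 of 8 genes, where 48.2% of tested genes were below 0. Their median was 0.08, and none had an unadjusted p under 0.05. Arl2, the most abundant of them, had a log2 fold change of 0.06. All 16 tubulins were tested, 10 below and 6 above 0 with a median of -0.03, and 0 had an unadjusted p under 0.05. Tubb4a, the most abundant tubulin, was at 1281 ± 123 and 1237 ± 154 CPM (log2 fold change 0.05). The 8 actins and actin-related genes were split evenly, and Actb averaged 698 ± 25.5 CPM over the Neat1-KO mice and 701 ± 72.4 CPM over the controls (log2 fold change -0.01). The other prefoldin and prefoldin-like genes had a median of 0.00, with 4 of 7 below 0, and Pfdn5 had a log2 fold change of 0.06.

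Of the WD40 and other clients, 24 of 25 were tested with a median of 0.02. Plk1, a mitotic kinase, was at 1.08, 1.53, 1.30 and 0.839 CPM in Neat1-KO and at 0.588, 0.700 and 0.714 CPM in Neat1-WT libraries, a low level near the filter (log2 fold change 0.83, 0.11 to 1.55, unadjusted p = 0.0276, adjusted p = 0.992 in edgeR). Ppp2r2c, a regulatory subunit of protein phosphatase 2A and the most abundant gene of the list, was at 396 to 427 CPM in Neat1-KO and 431 to 444 CPM in Neat1-WT libraries, without overlap, with a log2 fold change of -0.08 (-0.21 to 0.05). In 3 of the 24 genes, every Neat1-KO library lay on the same side of all controls, beside 5.47% of all tested genes.

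The partners of the HSP70 and HSP90 systems, which feed clients to TRiC or fold them in parallel, were below 0 for 11 of 11 tested genes, with a median of -0.13. Over all tested genes, 48.2% were below 0. Of the 11, 3 had an unadjusted p under 0.05 in edgeR, beside 4.64% of tested genes. For 2 the genotypes did not overlap, beside 5.47% of tested genes. Hsph1, an HSP110 exchange factor, was at 288, 261, 305 and 265 CPM in Neat1-KO and at 365, 358 and 294 CPM in Neat1-WT libraries. Neat1-KO replicate 3 overlapped Neat1-WT replicate 4. Its log2 fold change was -0.28 (-0.47 to -0.09, unadjusted p = 0.0072, adjusted p = 0.912 in edgeR). Dnaja1, an HSP40 cochaperone, had -0.23 (unadjusted p = 0.0330) and Hsp90aa1, the inducible HSP90, -0.19 (unadjusted p = 0.0350), both with an adjusted p of 0.992 in edgeR. Hspa8, the constitutive HSP70 and the most abundant gene of the list, had a log2 fold change of -0.01, with a sign that depended on scaling, tool and libraries. The mitochondrial chaperonin, the bacterial-type counterpart of TRiC, consists of Hspd1 and Hspe1, both below 0 with a median of -0.11. Hspd1 averaged 187 ± 17.8 CPM over the 4 Neat1-KO mice and 205 ± 11.2 CPM over the 3 controls (± SD), with a log2 fold change of -0.13 (-0.31 to 0.05).

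The member counts had little room for reads from copies. A BLAST search of all annotated transcripts found 8 processed pseudogenes with at least 80% identity over at least 50% of their length. Cct3-ps1 and Gm11516 resemble Cct3, Gm15495 Cct4, Tcp1-ps1 Tcp1, Gm47225 Cct2, Gm19777 Pfdn1, and Gm38027 and Gm47426 Pfdn2. They had at most 5 counts in any library, and the reads of the members were counted only where they mapped uniquely. Exons of 5 members overlapped a protein-coding gene on the opposite strand, by 2.80% (Tcp1 with Mrpl18), 11.3% (Tcp1 with Acat3), 12.5% (Cct6a with Psph), 3.16% (Cct7 with Pradc1), 6.22% (Cct8 with Usp16) and 27.6% (Pfdn2 with Klhdc9) of the member's exon length. The libraries keep the strand, but whether the counting used it is not given in the sources used here. Without it, reads of such a pair in the shared bases cannot be told apart.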

How the data were processed

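Poly(A) directional libraries of cervical spinal cord, 1 per mouse, were sequenced as read pairs. The authors trimmed (Trimmomatic 0.38), aligned the reads (HISAT2 2.1.0, mm10), and deposited raw counts of uniquely mapped reads per gene (featureCounts 1.6.3; FastQC 0.11.7 and SAMtools 1.9 are also named in the submitters' processing notes), without normalization. The annotation release and the strand setting are not given in the sources used here. Groups and replicate numbers came from the sample labels.

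The members and the related lists were chosen with earlier results of these data known. Symbols and exon lengths came from GENCODE M21, which named 55227 of 55487 identifiers. Genes were filtered by filterByExpr, scaled by TMM (factors 0.991 to 1.008) and tested with the edgeR 4.0.16 quasi-likelihood F-test in R 4.3.3, with Benjamini-Hochberg adjustment over 18449 genes (biological coefficient of variation 0.128). Intervals are 95%. Correlations used log2(CPM + 0.5), and exact permutation covered every assignment of the 7 libraries. The mean TRiC profile is the mean over subunits of centred log2 CPM. Named genes were the members, Neat1, from each list the gene with the highest mean CPM and up to 3 with the smallest unadjusted p under 0.05, the 5 genes most like the TRiC profile, and copies found by BLAST 2.17.0. Further names were added after their values were seen (the other prefoldin subunits and marker genes). Alternatives used DESeq2 1.42.0, limma 3.58.1, other factors, no filter, a replicate block and left-out libraries. The tests were tested on simulated data. Other software was Python 3.11.15, scipy 1.17.1, pandas 2.3.3 and matplotlib 3.10.9. A result on further genes is not reported here. Proteins of the subunits were not compared, since their sequences were not used here.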

Additional observations from a re-analysis of the deposited data

Results flagged for a closer look

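Among 35 named genes, 2 had 1 Neat1-KO library far from the other 3 by Dixon's criterion for 4 values, where chance gives about 1 in 20 (1.75 expected). Cct5 was high in Neat1-KO replicate 1 (gap over range 0.868), the library with the second lowest sum of meningeal markers. Pfdn6 was low in Neat1-KO replicate 3 (gap over range 0.868), at 33.5 CPM against 41.4 to 42.6 CPM in the others.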

How the results depend on the processing

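No member was called under any alternative run. The number of genes called, 6 in all, became 124 without a filter on low counts, 27 with the DESeq2 Wald test and 38 with the replicate block, and ranged from 3 (without Neat1-WT replicate 3) to 31 (without Neat1-KO replicate 1) when 1 library was left out, with 11 without Neat1-WT replicate 4. Members below 0, 8 of 10, numbered 5 with the meningeal marker sum as a covariate (added after seeing the data) and 4 to 9 with 1 library left out, the lowest without Neat1-WT replicate 2. The median r over the TRiC pairs, 0.880, stayed between 0.840 and 0.896 under the other scalings, scales, statistics and left-out libraries and became 0.311 with the relation to that sum removed (also added). By the longest coding transcript 1 of 9 members kept its rank of level per length, and by coding length 0 did. Same-numbered mice did not deviate together (r of -0.350, -0.289 and -0.0286 for numbers 2, 3 and 4, over genes of at least 5 CPM), so the numbers were not taken as pairs, and the replicate block changed no member's call. Xist as a covariate was not run, because it had at most 4 counts in any library.

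Signs of log2 fold changes near 0 reversed as follows, and the cause was not tested. Cct8 was at -0.0036 with median-of-ratios factors, -0.0021 without a filter, -0.0038 with DESeq2, -0.0021 with limma-voom and -0.0479 with the replicate block, and from -0.0482 to 0.05 with 1 library left out. With library totals, Cct4 was at 0.0031, Actb at 0.0041 and Hspa8 at 0.0021. Hspa8 was at 0.0058 with limma-voom. With the replicate block, Pfdn5 was at -0.0033, Txndc9 at -0.0754, Actb at 0.0151 and Hspa8 at 0.0302. With the meningeal marker sum as a covariate, Cct3 was at 0.0057, Cct4 at 0.0512, Cct5 at 0.0128 and Hspa8 at 0.0445. With 1 library left out, values ranged from -0.0763 to 0.0086 for Cct3, -0.104 to 0.0544 for Cct4, -0.0804 to 0.0165 for Cct5, -0.107 to 0.0061 for Cct7, -0.0081 to 0.146 for Pfdn5, -0.0796 to 0.0673 for Txndc9, -0.0045 to 0.156 for Tubb4a, -0.0511 to 0.0805 for Actb and -0.112 to 0.156 for Hspa8. The member counts were 903 or more per library, and how far counting error or the number of mice limited the precision was not tested. The widest member interval, that of Pfdn1, reached -0.32 on the log2 scale.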
